A study of Mus musculus with 6 samples.

Results

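The genes described here are the 7 CDK inhibitors *Cdkn1a*, *Cdkn1b*, *Cdkn1c*, *Cdkn2a*, *Cdkn2b*, *Cdkn2c* and *Cdkn2d* and the 3 D cyclins *Ccnd1*, *Ccnd2* and *Ccnd3*. Their probes were found by matching the transcript accession of each array probe to RefSeq, and all 10 genes were found among the 23462 named genes with a tested probe. They were measured in microglia, the resident macrophages of the brain, sorted as live CD45lo CD11b+ Cx3cr1+ cells from 3-month-old mice on a C57BL/6 background. The 3 B41HET samples carried 1 *Bhlhe41* dTomato-Cre allele beside a wildtype allele (Bhlhe41 dTomato-Cre/+), and the 3 B41KO samples carried dTomato-Cre on both alleles (Bhlhe41 dTomato-Cre/dTomato-Cre), so that both genotypes carry the reporter and Cre at the *Bhlhe41* locus and no wildtype sample was analysed here. The allele is present in every cell of the animal, and each sample is a pool of 10 to 15 mice in the Methods. The labels call the samples biological replicates, so p-values measure the spread between pools and not between single mice. Values are log2 signals of 1-colour arrays after quantile normalization, which are comparable between samples for the same probe and not between probes.

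D cyclins bind and activate the kinases CDK4 and CDK6, which phosphorylate the retinoblastoma protein and release E2F factors at the G1 to S transition. The Cip/Kip inhibitors p21 (*Cdkn1a*), p27 (*Cdkn1b*) and p57 (*Cdkn1c*) act on several cyclin and CDK complexes, and the Ink4 inhibitors p16 (*Cdkn2a*), p15 (*Cdkn2b*), p18 (*Cdkn2c*) and p19 (*Cdkn2d*) bind CDK4 and CDK6. *Cdkn2a*, which also encodes p19Arf, and p21 are widely used as markers of senescence, and Bhlhe41 is a basic helix-loop-helix repressor that binds E-boxes. Whether these genes differed between the genotypes is asked here because the study concerns aging-like changes of microglia that lack Bhlhe41.

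One D cyclin, *Ccnd2*, was lower in the B41KO samples, by 0.51 on the log2 scale on the brighter of its probes. It did not pass the test on its dimmer probe, nor on the brighter one with any sample left out. No CDK inhibitor passed the test. *Ccnd1* and the brighter probe of *Cdkn1a* were lower, and *Cdkn1b* was higher, in each B41KO sample than in each B41HET sample, but none of these differences passed the adjusted threshold. The 10 genes were measured with 15 probes, of which 13 were well above background on all 6 arrays and 2, a second probe each for *Cdkn2a* and *Cdkn2b*, on none. A probe was called when its limma p-value, adjusted over all probes (Benjamini-Hochberg), was 0.05 or less and its log2 fold change was at least 0.5 in size. By this rule 1 of 15 member probes was called, lower in B41KO, against 5.09% of all 56601 probes tested, 3.38% of them lower, and against 6.29% of the probes well above background on all arrays. By the brightest probe of each gene, 1 of 10 members was called against 5.49% of all genes. The members' share is therefore near the background. The groups did not overlap for 6 of the 15 member probes, 4 of them lower and 2 higher in B41KO, against 29.6% of all probes. All 6 were among the 13 measured probes, where the background was 37.2%. Non-overlap was found for 4 of 5 D cyclin probes and 2 of 10 inhibitor probes, a description for which no test was made. The median log2 fold change of the 10 genes was -0.16, beside 0.01 over all genes.

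**Figure D1:**
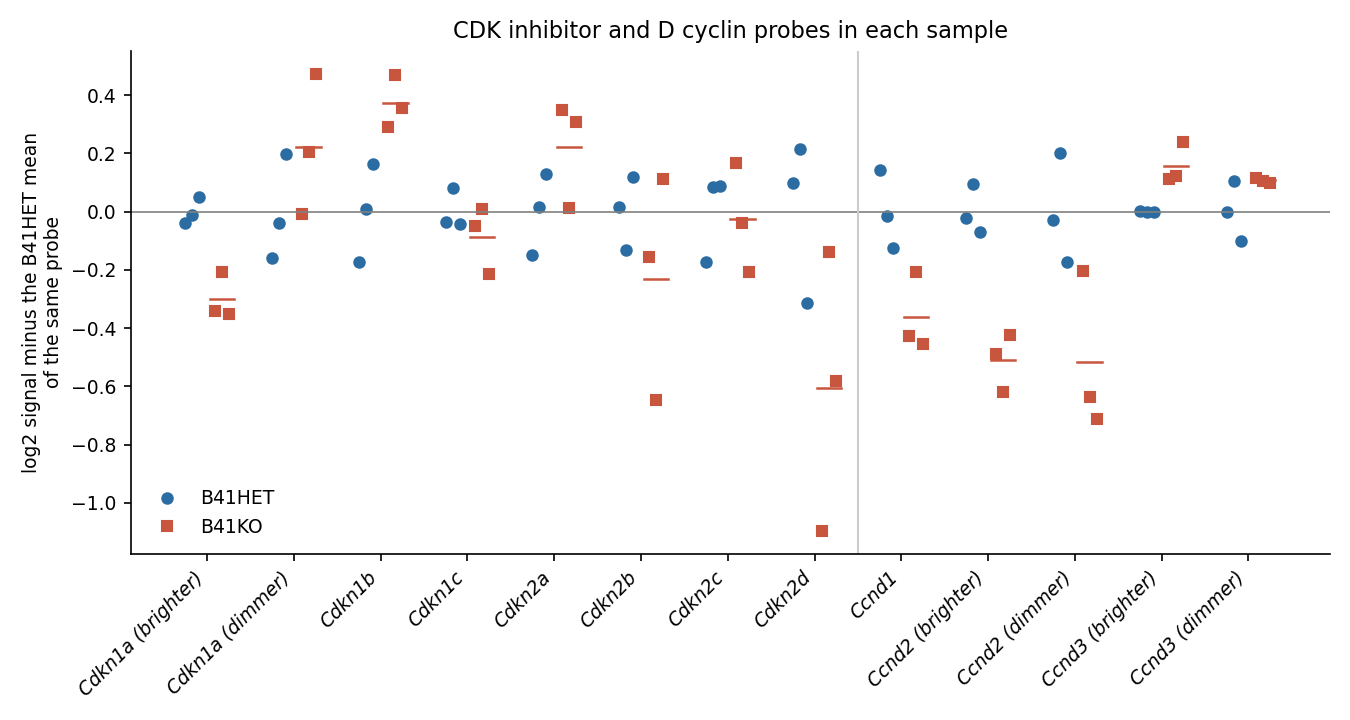
Log2 signal of each measured member probe in every sample, with the B41HET mean of the same probe subtracted. The vertical axis is this difference, circles are the 3 B41HET samples, squares the 3 B41KO samples, and the short bar is the B41KO mean. CDK inhibitors lie left of the grey line and D cyclins right of it. "Brighter" and "dimmer" name the probes of a gene with more than 1 measured probe. Both *Ccnd2* probes and *Ccnd1* have all 3 squares below all 3 circles, whereas the *Cdkn2d* squares spread widely.

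*Ccnd2*, the D cyclin for which 2 probes were measured and 1 was called, gave signals of 7.51, 7.62 and 7.46 in the B41HET samples and 7.04, 6.91 and 7.11 in the B41KO samples on its brighter probe (A_52_P53906). The highest B41KO sample lay below the lowest B41HET sample, with a gap of 0.35. Means were 7.53 ± 0.08 and 7.02 ± 0.10 (SD, n = 3 each), and limma gave a log2 fold change of -0.51 ± 0.09 (SE) with a 95% interval of -0.73 to -0.29 and an adjusted p of 0.0319. The signal thus fell by 29.8%, and 9.39% of measured probes had a larger change in either direction. The dimmer probe (A_55_P2917114) read 4.70, 4.93 and 4.56 in B41HET and 4.53, 4.09 and 4.02 in B41KO. Its groups were separated by 0.03 only. Its fold change was nearly the same at -0.52 ± 0.17 (SE), but its larger spread gave an adjusted p of 0.149, and this probe was not called. With normexp background correction the dimmer probe gave -0.11.

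The *Ccnd2* change lay close to the fold threshold, and its call was kept under 4 of 14 alternative settings, while the direction was kept under all 14 for both probes. With any of the 6 samples left out in turn the call was lost, with fold changes of -0.56 to -0.46 and adjusted p-values of 0.0649 to 0.110. Of the B41KO arrays, replicate 1 lay in the same slide row as the B41HET arrays and replicates 2 and 3 in the other row. Within the shared row, the B41KO sample differed from the B41HET mean by -0.49 on the brighter probe and by -0.20 on the dimmer probe. Blocking on slide row gave -0.49 for the brighter probe with an adjusted p of 0.203. In bulk samples such as these, fewer cells of a type and less RNA per cell cannot be told apart. Markers of several other cell types were also lower in the B41KO samples, while those of others were not. The counts of called markers below stand against 5.49% of all genes called in either direction. Of 12 neutrophil markers, all well above background, 9 were called lower, and their summed linear signal ranged from 31432 to 35280 in B41HET and from 6244 to 6661 in B41KO. *Mpo* was higher without overlap (0.38) and was not called. Of 10 border macrophage markers 5 were called lower, or 2 to 4 with 1 sample left out, with sums of 2638 to 2830 against 1821 to 2004, and of 7 monocyte markers 3 were called lower, or 2 to 3 with 1 sample left out, with sums of 1405 to 1481 against 407 to 429. Of 7 dendritic cell markers 2 were called lower, or 1 to 2 with 1 sample left out, with sums of 374 to 423 against 231 to 259. *Flt3* (0.14), *Itgax* (0.08) and *Zbtb46* (0.01) were not lower. Of 9 endothelial markers 2 were called lower, *Ly6c1* (-1.79) and *Pecam1* (-1.68), which are also expressed by myeloid cells. The other measured endothelial markers, *Cldn5* (-0.13), *Slco1a4* (0.04) and *Kdr* (-0.01), were not called, and the list's median was -0.13. Summed signals of T and NK cell markers were higher in B41KO, at 1571 to 1680 against 1358 to 1387 in B41HET. Those of astrocyte markers were also higher, at 2041 to 2272 against 1849 to 1931. No T and NK cell or astrocyte marker was called. Sums overlapped for the B cell, oligodendrocyte, neuron, and pericyte and fibroblast markers, with 1 B cell and 1 oligodendrocyte marker called lower. The part of these cells in the *Ccnd2* difference, and in those of the other genes here, was not tested. All 12 microglia markers were well above background on every array, 1 of them was called lower (*Fcrls*, -0.76, adjusted p = 0.00584), and their sums overlapped, at 193686 to 208996 in B41HET and 185756 to 195126 in B41KO. *P2ry12*, *P2ry13*, *Cx3cr1* and *Olfml3* were also lower without overlap, and *Csf1r* was higher without overlap (0.31), but none of these was called. Over all probes well above background on all arrays, 37.2% did not overlap.

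*Ccnd1*, a D cyclin induced by growth factor signalling, read 10.80, 10.65 and 10.54 in the B41HET samples and 10.23, 10.45 and 10.21 in the B41KO samples. The groups did not overlap, with a gap of 0.08. The log2 fold change was -0.36 ± 0.11 (SE) with a 95% interval of -0.64 to -0.09 and a limma adjusted p of 0.123, so the probe was not called. With normexp background correction the adjusted p was 0.00787 at a fold change of -0.41, which stayed under the fold threshold. *Ccnd3*, the remaining D cyclin, gave 8.42, 8.42 and 8.41 in B41HET and 8.53, 8.54 and 8.65 in B41KO on its brighter probe. These values did not overlap and differed the other way from those of *Ccnd1* and *Ccnd2*. The fold change was 0.16 ± 0.07 (SE), with an interval of -0.02 to 0.33 and an adjusted p of 0.257. The dimmer *Ccnd3* probe overlapped between the genotypes, at 8.04 to 8.24 in B41HET and 8.24 to 8.25 in B41KO, with an adjusted p of 0.496. The opposite signs among the D cyclins were not tested against each other.

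**Figure D2:**
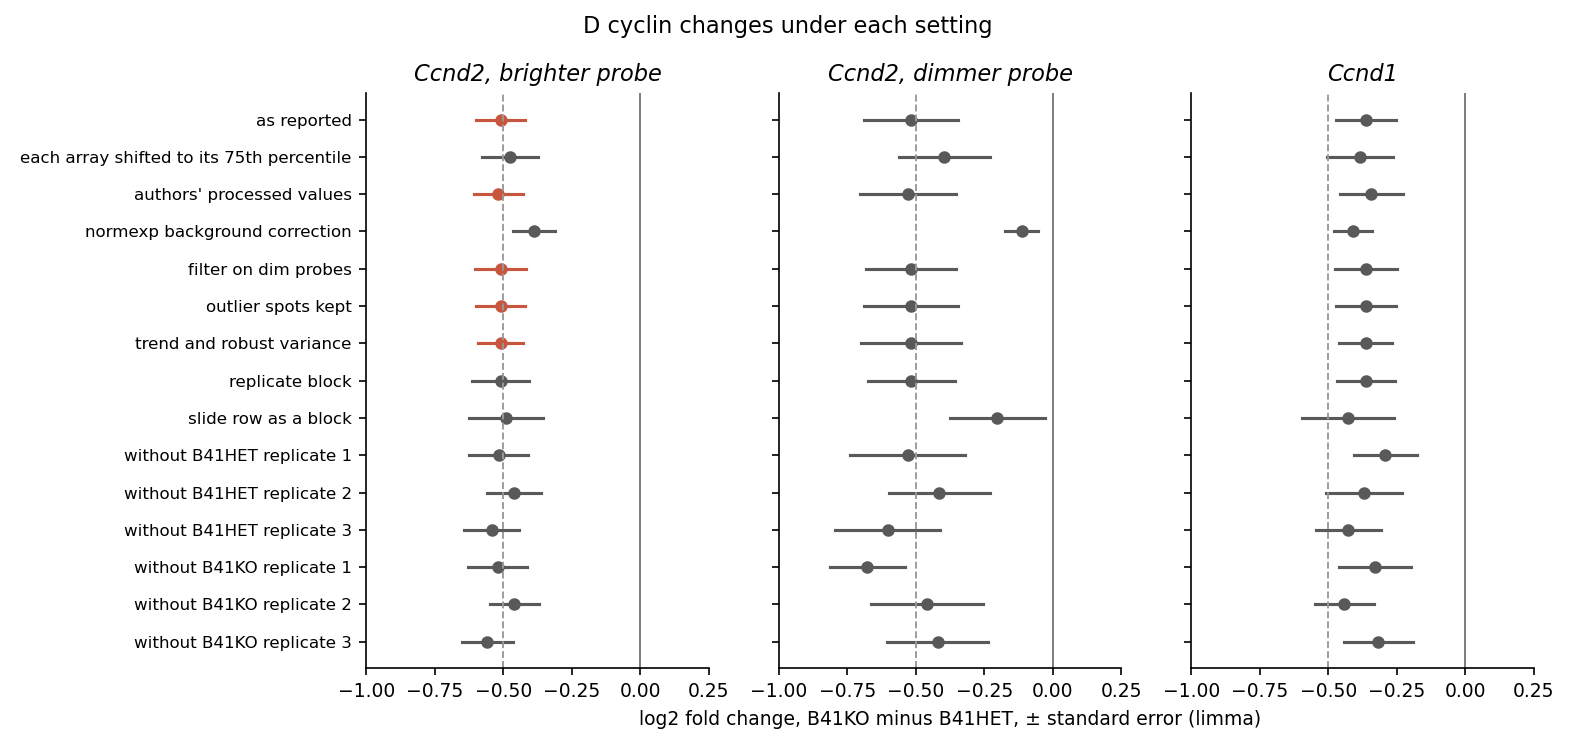
Log2 fold change (B41KO minus B41HET, horizontal axis) of the *Ccnd2* probes and of *Ccnd1* as reported and under each alternative setting, with limma standard errors as bars. Red marks settings in which the probe was called, the dashed line is the fold threshold of -0.5 and the solid line is 0. Every point lies below 0, and only the brighter *Ccnd2* probe is ever called.

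The genes whose profile over the 6 samples was most like that of the brighter *Ccnd2* probe, among 17197 genes well above background on all arrays, were *Thtpa* (Pearson r = 0.997), *Nfatc3* (r = 0.996) and *Podxl2* (r = 0.996). These points share the arrays and the split between the genotypes, and 1395 genes had r above 0.9. Their own log2 fold changes were -0.34, -0.19 and -0.56, and of the 3 genes only *Podxl2* was called, with a limma adjusted p of 0.0292.

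*Cdkn1a*, which encodes p21 and is induced by p53, has promoter windows for 2 starts in the RefSeq table on build GRCm38.p6. The 250 bases before each start are shown because the array's probes for *Cdkn1a* were designed on different RefSeq accessions and gave fold changes of opposite sign, although neither was called. They lie at chr17:29090729-29090978 and chr17:29093519-29093768, both on the plus strand. Capitals mark ACATGT, a sequence that fits the core of the p53 half-site and reads the same on both strands.
Cdkn1a upstream start: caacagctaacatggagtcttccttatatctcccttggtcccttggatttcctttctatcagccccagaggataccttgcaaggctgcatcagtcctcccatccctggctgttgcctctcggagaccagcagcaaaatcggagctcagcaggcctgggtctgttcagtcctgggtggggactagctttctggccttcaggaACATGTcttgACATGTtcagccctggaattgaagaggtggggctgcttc
Cdkn1a downstream start: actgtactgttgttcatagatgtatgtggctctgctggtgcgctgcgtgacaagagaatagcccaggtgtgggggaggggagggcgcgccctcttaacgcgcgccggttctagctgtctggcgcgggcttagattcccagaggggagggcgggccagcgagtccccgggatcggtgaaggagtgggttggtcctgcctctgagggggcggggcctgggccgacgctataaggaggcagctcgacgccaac
The upstream window holds ACATGT at 2 places and the downstream one at none. Of 32851 promoter windows of 300 bases, 5.28% hold it at least once and 0.329% at 2 or more places. Such a match describes the sequence only, and whether p53 binds there was not examined.

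The brighter *Cdkn1a* probe (A_51_P363947, designed on NM_007669) read 8.51, 8.54 and 8.60 in B41HET and 8.21, 8.35 and 8.20 in B41KO. The groups were separated by 0.17. The log2 fold change was -0.30 ± 0.08 (SE), with an interval of -0.49 to -0.11 and a limma adjusted p of 0.0819, the lowest among the inhibitor probes but not past the threshold. With normexp it was 0.0261 at a fold change that stayed under the threshold. The dimmer probe (A_55_P1986282, designed on NM_001111099) read 7.08, 7.20 and 7.44 in B41HET and 7.24, 7.45 and 7.72 in B41KO, with overlapping groups. Its fold change had the other sign, 0.22 ± 0.16 (SE) with an adjusted p of 0.477, and was -0.01 when slide row was a block. Leaving out B41KO replicate 1 gave 0.34, B41KO replicate 3 gave 0.10 and B41HET replicate 1 gave 0.14. The difference between the *Cdkn1a* probes within a sample was 1.43, 1.34 and 1.16 in B41HET and 0.98, 0.90 and 0.49 in B41KO. It was smaller in every B41KO sample, a description with no test, since these probes were singled out for their opposite signs. The probe sequences were not used here, and which exons each probe reads was not examined.

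*Cdkn1b*, which encodes the p27 inhibitor that accumulates in resting cells, was the inhibitor with the largest difference upward. Its probe read 7.35, 7.53 and 7.69 in B41HET and 7.81, 7.99 and 7.88 in B41KO, and the groups were separated by 0.13. The log2 fold change was 0.37 ± 0.11 (SE) with an interval of 0.10 to 0.65 and a limma adjusted p of 0.117, and under the 14 alternatives it ranged from 0.26 to 0.45 with no call. *Cdkn1c*, the imprinted p57 gene, read 8.13, 8.24 and 8.12 in B41HET and 8.11, 8.17 and 7.95 in B41KO. These values overlapped, and the interval of the log2 fold change, -0.31 to 0.14, excludes a difference of the size of the fold threshold in either direction.

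Among the Ink4 inhibitors, the *Cdkn2a* gene of p16 and p19Arf was read by 1 measured probe, at 3.70, 3.86 and 3.97 in B41HET and 4.19, 3.86 and 4.15 in B41KO. B41KO replicate 2 lay within the B41HET range. The log2 fold change was 0.22 ± 0.13 (SE), with an interval of -0.09 to 0.54 and a limma adjusted p of 0.369, so that neither no change nor a rise at the fold threshold lies outside the interval, and under the 14 alternatives the value ranged from 0.03 to 0.36 with no call. The other *Cdkn2a* probe did not rise well above background in any sample, so it gives no measured fold. Both probes carry the same transcript accession, and which of p16 and p19Arf they read was not examined here.

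*Cdkn2b*, which lies beside *Cdkn2a* and encodes p15, read 3.93, 3.78 and 4.03 in B41HET and 3.76, 3.27 and 4.03 in B41KO. The groups overlapped, with a log2 fold change of -0.23 ± 0.21 (SE) and an adjusted p of 0.580. The value was -0.02 without B41KO replicate 2, -0.40 without B41KO replicate 3 and -0.02 with normexp, and no sample gave a signal well above background on its other probe. *Cdkn2c*, the p18 gene, read 7.74, 8.00 and 8.00 in B41HET and 8.08, 7.88 and 7.71 in B41KO. Its samples were interleaved, with an interval of -0.35 to 0.30 and an adjusted p of 0.935. *Cdkn2d*, the p19 gene of the Ink4 family, read 5.24, 5.36 and 4.83 in B41HET and 4.04, 5.0 and 4.56 in B41KO. Its log2 fold change was -0.60, with the widest interval of a measured probe, -1.28 to 0.07, and an adjusted p of 0.265. B41KO replicate 1 was the lowest sample, with a difference of -1.10 from the B41HET mean, and B41KO replicate 2 lay within the B41HET range. The fold change was -0.36 without B41KO replicate 1, -0.84 without B41KO replicate 2, -0.15 with normexp and -1.10 with slide row as a block, with no call under any of the 14 alternatives.

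**Figure D3:**
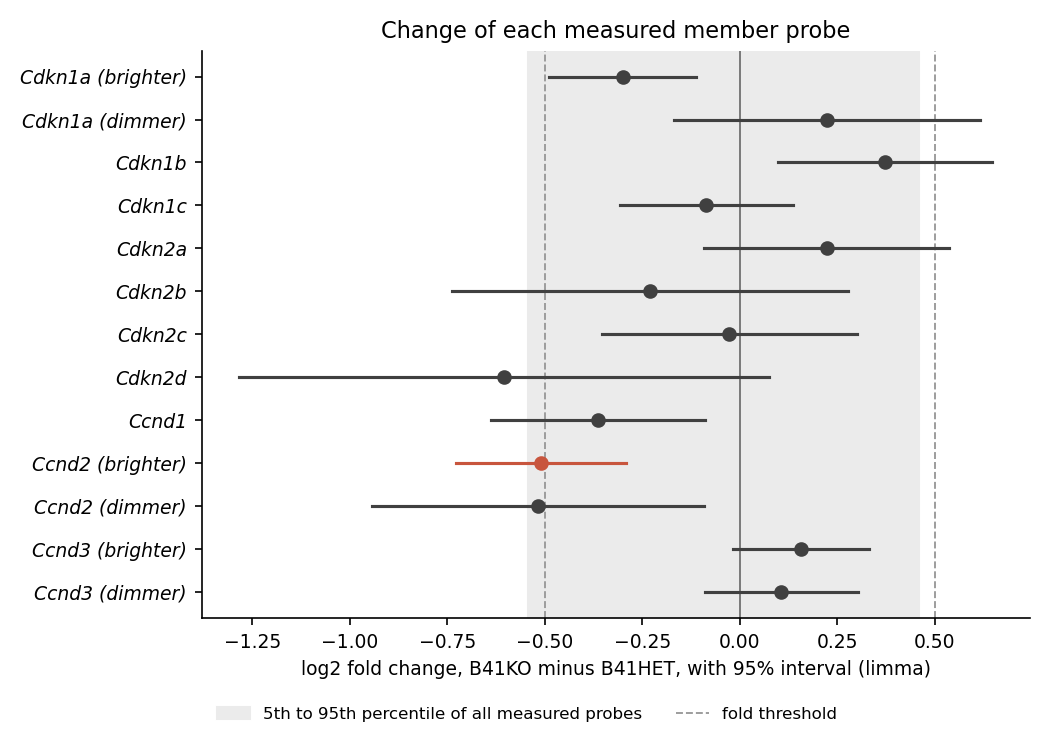
Log2 fold change (B41KO minus B41HET, horizontal axis) of the 13 measured member probes, with limma 95% intervals as bars. The grey band spans the 5th to 95th percentile of all probes well above background on the 6 arrays, from -0.54 to 0.46, the dashed lines are the fold threshold of 0.5 on either side, and red marks the called probe. Only *Cdkn2d* lies outside the grey band, and its interval crosses 0.

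Promoter windows were found in the RefSeq table for 7 of the 10 genes, 11 windows in all, with several starts for some genes. *Ccnd1*, *Ccnd2* and *Cdkn1c* had none. The E-box CACGTG, which reads the same on both strands and is bound by Bhlhe41, was found in 1 of the 11 windows, against 7.15% of all windows. It is shown with its surroundings because it is the only match among the members, lies just after a *Cdkn2c* start at chr4:109665323-109665352 on the minus strand (GRCm38.p6), and is marked in capitals.
Cdkn2c E-box: ttttgctgaataatCACGTGtgaatcgagg
The *Cdkn2c* probe was among those with the smallest difference between the genotypes.

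The kinases and other cyclins that act with these genes were read next, from lists chosen with earlier results of these arrays known, and each gene was represented by its brightest probe. *Cdk4*, the main partner of the D cyclins, has 3 probes that disagreed. The brightest read 10.65, 10.64 and 10.48 in B41HET and 10.27, 10.49 and 10.28 in B41KO, with overlapping groups and an adjusted p of 0.212. The second read 10.34, 10.28 and 10.17 against 9.0, 9.01 and 8.88, a log2 fold change of -1.30 ± 0.08 (SE) with an adjusted p of 0.00262 that stayed called with any sample left out. The dimmest gave -0.44 with an adjusted p of 0.0847. *Cdk6* (-0.08) and *Cdk2* (-0.31, adjusted p = 0.103) were not called. Of 13 CDKs and other cyclins, 1 was called higher and 1 lower, with a median of -0.23. This count and those of the lists that follow stand against 5.49% of all genes called in either direction. *Ccnb1*, the mitotic cyclin B1, rose by 2.14 ± 0.16 (SE) on its brightest probe (adjusted p = 0.00416) and by 0.92 on a second, and the last was near background in all samples. Both calls were lost with slide row as a block, at log2 fold changes of 2.05 and 0.96 and adjusted p-values of 0.0525 and 0.0846. The pseudogene *Ccnb1-ps* was not well above background in B41HET and at least 4.60-fold higher in B41KO (adjusted p = 0.00366), so the source of the *Ccnb1* signal is uncertain, as near-identical copies can share a probe's target. *Ccna2*, the S-phase cyclin A2, fell by 0.63 (adjusted p = 0.0100), a call lost without B41HET replicate 2 (-0.60, adjusted p = 0.0523). Its other probe gave -0.13 and was not called.

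Of 19 RB, E2F and DREAM genes, 1 was called, a share near the 5.49% of all genes. This was *E2f2*, at -1.36 ± 0.20 (SE) with an adjusted p of 0.0217, and the list's median was -0.0045. That call was lost without any one B41HET sample or without B41KO replicate 2, with adjusted p-values of up to 0.0876, and a dimmer *E2f2* probe gave -0.47 and was not called. *Rb1* (0.31, and -0.21 on its other probe) and *E2f1* (-0.09) were not called. Of 20 genes of p53 and its targets, 2 were called, again against 5.49% of all genes. *Bax*, a mediator of cell death, was called higher (0.51, adjusted p = 0.0233) and *Perp*, a p53 effector, lower (-0.69, adjusted p = 0.0477). The *Bax* call was lost with any sample left out, and the *Perp* call without any sample but B41HET replicate 1, and the other *Bax* probe gave 0.07. *Trp53* (-0.20, adjusted p = 0.178) and *Mdm2* (0.06, adjusted p = 0.715) were not called.

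Of 16 tested genes that act in the turnover of the inhibitors and D cyclins, *Cul4b* alone was called (-0.86, adjusted p = 0.0481), a call kept only without B41KO replicate 3. Of 20 Polycomb and related regulators of the Ink4 locus, *Ets2* (-0.65, adjusted p = 0.0360) and the histone demethylase *Kdm6b* (-0.60, adjusted p = 0.0176) were called lower. The *Ets2* call was lost with any sample left out, and the *Kdm6b* call without B41HET replicates 1 or 2 or B41KO replicates 1 or 2. Of 20 genes upstream of the D cyclins and p27, *Mxd1*, a MAX dimerization partner, fell by 0.63 (adjusted p = 0.0202) and fell by 0.96 on a second probe, of which only the second stayed called with any sample left out, while the first was called only without B41HET replicate 3. Blocking on slide row removed both calls, at log2 fold changes of -0.57 and -0.90, with an adjusted p of 0.0734 for the second. The medians of these lists were -0.12, -0.12 and -0.21.

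Of 25 proliferation genes, *Top2a*, a topoisomerase of dividing cells, fell by 1.07 (adjusted p = 0.0131) and fell by 1.66 on a second probe (adjusted p = 0.00721), and *Ccna2* and *Ccnb1* are those given above. The first *Top2a* call was lost without B41HET replicates 1 or 3, with an adjusted p of up to 0.0559, and the second was not lost. *Mki67* (-0.42, adjusted p = 0.0703) and *Aurka* (-0.27, adjusted p = 0.371) were not called. Of 28 genes secreted by or marking senescent cells, 1 was called higher and 6 lower, with a median of -0.02, against 5.49% of all genes called in either direction. With 1 sample left out 4 to 6 were called lower. *Plaur*, the urokinase receptor, rose by 1.83 ± 0.07 (SE) with a limma adjusted p of 0.000907, and *Mmp14* (-1.59) and *Igfbp4* (-1.12) were among those that fell. These 3 stayed called with any sample left out, but *Igfbp4* lost its call with slide row as a block (-1.19, adjusted p = 0.0562, and -0.84, adjusted p = 0.0585, on its other probe). *Cxcl2* was not well above background in B41KO and at least 1.68-fold higher in B41HET, a call lost without B41KO replicate 2. Over the 20 called probes of the pathway genes named here and *Ccnb1-ps*, slide row as a block left 6 called, those of *Plaur*, *E2f2*, *Mmp14*, *Cdk4* and *Ccnb1-ps* and the second of *Top2a*, and 14 lost the call.

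**Figure D4:**
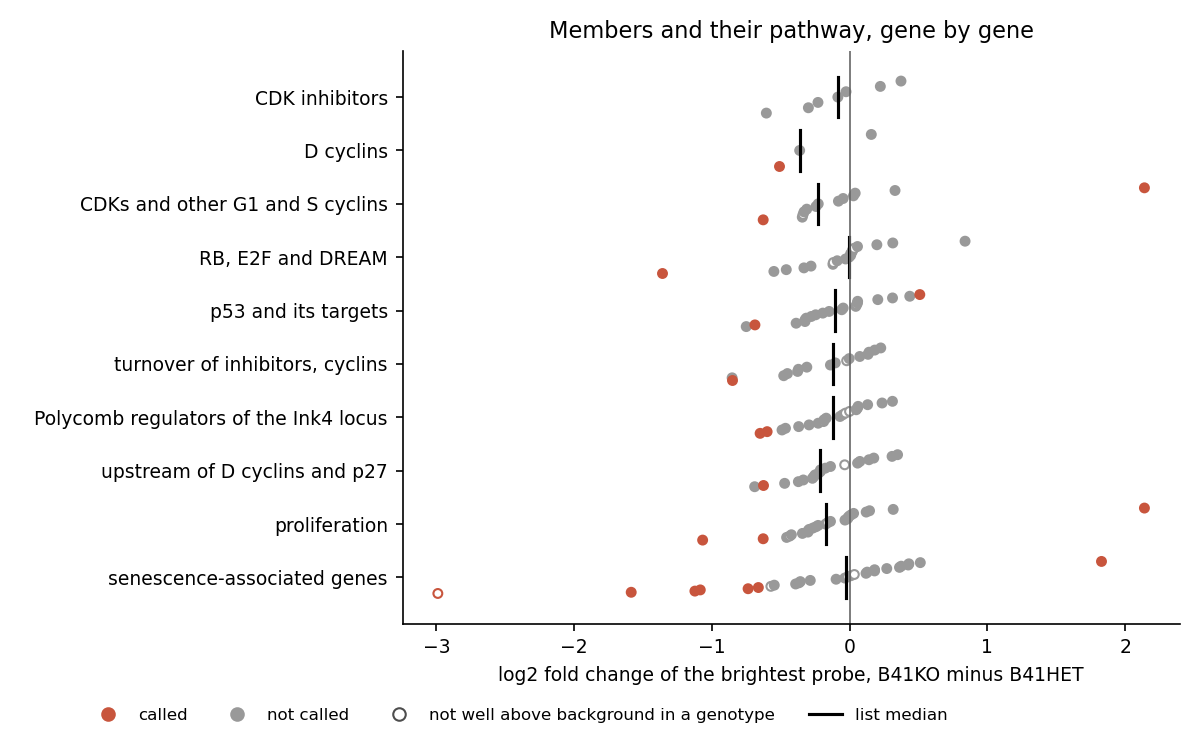
Log2 fold change (B41KO minus B41HET, horizontal axis) of every tested gene of the member lists and 8 pathway lists, by its brightest probe. Red marks called genes, grey those not called, open symbols genes not well above background in a genotype, whose fold change is not a measured size, and black bars the list medians. A gene may stand in several lists, as *Ccnb1* does at 2.14. The medians lie between -0.36 and -0.0045.

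The signal of the targeted gene itself was not lower in B41KO. *Bhlhe41* read 7.95, 7.87 and 7.65 in B41HET and 8.56, 7.84 and 8.21 in B41KO on its brightest probe, with an adjusted p of 0.330. Its other probe was higher without overlap, at 7.40 to 7.86 in B41HET and 7.91 to 7.96 in B41KO. That log2 fold change was 0.33 and was likewise not called, and 37.2% of all measured probes did not overlap. As the study describes it, the allele is an insertion ahead of the start codon that ends translation. Where these probes lie relative to the insertion was not examined, so their signals do not check the labels. *Bhlhe40*, the related repressor, gave a log2 fold change of 0.08. On each array 70.1% to 75.5% of probes were well above background and none was saturated, and over all probes arrays correlated at 0.989 to 0.993 within and 0.985 to 0.989 between the genotypes.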

How the data were processed

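RNA of 6 samples was hybridised in 1 colour on 1 slide. The authors deposited scanner intensities, made with Feature Extraction 11.5.1.1 and background-subtracted and detrended within each array, and a table of log2 values read as quantile normalized, which served as an alternative. Here the log2 processed intensity of 59305 non-control spots was quantile normalized, 95 to 136 outlier spots per array were left out, and spots were averaged per probe. limma 3.58.1 in R 4.3.3 with genotype as the only term compared the samples, with Benjamini-Hochberg adjustment over 56601 probes. The number of arrays limits the precision. Probes were named by accession through RefSeq (GRCm38.p6, 59.7% named). The array design names mm9, so probes and genes are given no coordinates, and those printed are of RefSeq promoter windows on GRCm38.p6. A fold against a genotype not well above background is a bound set by the lowest signal well above background. The members, the lists and the rule for named genes (every member, up to 4 called genes per pathway list, a few fixed cell-cycle genes and the 3 genes most like the called member) were chosen with earlier results of these data known. Scripts were tested on simulated data. Alternatives covered normalization, background correction, dim and outlier spots, variance model, blocks, thresholds, probe choice and single samples left out. Figures used matplotlib 3.10.9.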

Additional observations from a re-analysis of the deposited data

How the results depend on the processing

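The count of member probes called and the count of member genes called, 1 each, were 0 when arrays were aligned at the 75th percentile, with normexp, with the replicate block, with the slide row as a block and at a fold of 1.5 or more, and the gene count was 0 when a gene's probes were averaged. With 1 sample left out both counts were 0 in each case (0 to 0). The cause was not tested, except that a stricter fold alone removes *Ccnd2*. Over all probes, 2883 were called, and 1501 with normexp, 39 with the replicate block, 444 with the slide row as a block and 803 to 1498 with 1 sample left out, where fewer samples enter. Same-numbered samples deviated with correlations of 0.03, 0.01 and 0.05. B41KO replicates 1 and 3 correlated best with their own number, and B41KO replicate 2 with B41HET replicate 1. Deviations within a genotype sum to 0, which limits such correlations, so they do not settle whether samples were paired. For the brighter *Ccnd2* probe the adjusted p was 0.0550 after the 75th percentile shift, 0.0144 with normexp (log2 fold change -0.39), 0.123 with the replicate block and 0.203 with the slide row. Of 208 values for single member probes, 191 kept direction and call, 10 lost the call and 7 turned sign. The turned ones, none called, were *Cdkn2a* on the probe not well above background (0.25, 75th percentile, not a measured size), *Cdkn1a* on its dimmer probe (-0.0069, slide row) and *Cdkn2c* (0.0069 with normexp, 0.17 with the slide row, and -0.12 to 0.066 with 1 sample left out, above 0 without B41HET replicates 2 or 3 or B41KO replicate 3). Signals of the *Cdkn2a* and *Cdkn2b* probes near background limit what these arrays can show of them.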
